A study of Mus musculus with 2 samples.

Results

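The Slc22 genes encode membrane transporters for small organic ions, and 8 of them were asked for by symbol in liver RNA from mice without adiponectin and from wild-type mice. A row of the deposited expression tables with the same symbol was found for 4 of the 8, namely Slc22a7, Slc22a15, Slc22a18 and Slc22a23, out of 13326 gene symbols in all. A further 2 were found under an older symbol that RefSeq gives to that gene alone. These were Slc22a28, listed as Gm5631, and Slc22a30, listed as C730048C13Rik. Their values are given beside those of the 4, and counts are given with and without them. Slc22a26 and Slc22a27 were not analysed here.

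The knockout library came from mice of the genotype Adipoq-/-, which lack the gene for the adipocyte hormone adiponectin, and the other library from wild-type mice. Both groups were C57BL/6J males aged 12 weeks that had fasted overnight. Each library held the pooled liver RNA of 9 to 10 mice, so there was 1 library per genotype, and no spread between animals can be given. The sources used here do not say how the Adipoq allele was made. Adipoq was not analysed here, and the genotypes are therefore taken from the labels alone.

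Transporters of the Slc22 family carry organic anions, organic cations or zwitterions such as carnitine across the plasma membrane, mostly in hepatocytes and kidney tubule cells. In the liver they bring drugs, hormone conjugates and metabolites from the blood into the hepatocyte. Slc22a7, also called OAT2, takes up organic anions at the blood-facing side of the hepatocyte. Slc22a15 is related to the carnitine transporters, and its human counterpart carries zwitterions. Slc22a18 is an imprinted gene expressed mainly from the maternal allele, and Slc22a23 is an orphan without an established substrate. Slc22a28 and Slc22a30 belong to a rodent group of genes that resemble the organic anion transporters.

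Slc22a28 and Slc22a30 lie on chromosome 19 of the mouse, with Slc22a29 between them. The 250 bases before the annotated start of each gene are shown because they show how close the copies are. Both sequences are from RefSeq on GRCm38.p6, on the minus strand, for Slc22a28 at chr19:8131983-8132232 and for Slc22a30 at chr19:8405106-8405355. Capitals mark the bases that differ or have no partner when the windows are aligned.
Slc22a28: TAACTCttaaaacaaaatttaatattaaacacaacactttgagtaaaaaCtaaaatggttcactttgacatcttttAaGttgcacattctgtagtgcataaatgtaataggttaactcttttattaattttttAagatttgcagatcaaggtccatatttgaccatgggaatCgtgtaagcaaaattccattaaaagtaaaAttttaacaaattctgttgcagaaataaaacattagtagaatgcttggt
Slc22a30: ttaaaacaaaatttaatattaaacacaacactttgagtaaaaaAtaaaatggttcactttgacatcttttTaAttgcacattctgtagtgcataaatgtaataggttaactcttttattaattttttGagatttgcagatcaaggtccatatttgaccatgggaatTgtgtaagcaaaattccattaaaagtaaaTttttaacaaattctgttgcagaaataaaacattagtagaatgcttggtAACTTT
Of 244 aligned bases, 238 were identical (97.54%). The window of Slc22a29 was less alike, with 77.5% identity to that of Slc22a28 and 77.8% to that of Slc22a30.

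The window of Slc22a23, the gene with the lowest ratio of the listed genes, was of another kind. It is shown with each CG dinucleotide in capitals, from RefSeq on GRCm38.p6 at chr13:34345219-34345468 on the minus strand.
Slc22a23: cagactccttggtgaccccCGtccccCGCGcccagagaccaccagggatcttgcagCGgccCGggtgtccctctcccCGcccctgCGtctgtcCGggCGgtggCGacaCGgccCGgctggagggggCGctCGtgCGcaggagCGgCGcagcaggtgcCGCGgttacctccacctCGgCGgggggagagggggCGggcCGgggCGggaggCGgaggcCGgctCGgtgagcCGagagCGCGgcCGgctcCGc
It held 32 CG dinucleotides and 78.4% G and C, more G and C than 98.1% of 32851 such windows. The window of Slc22a15 held 24 CG dinucleotides and 66.8% G and C. That of Slc22a18 had 52.8% G and C and 0 CG dinucleotides, against medians of 52.4% and 6 over all windows. The windows of Slc22a28 and Slc22a30 held 26.8% and 25.6% G and C, with 1 and 0 CG dinucleotides. Less than 1% of all windows (0.566% and 0.377%) had a lower share of G and C than these.

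Levels are given as FPKM, which divides fragments by transcript length and by the mapped total, so that genes of different length can be compared. By this measure Slc22a30, Slc22a18 and Slc22a28 were the most abundant of the listed genes in both libraries, and Slc22a15 the least. The order in the knockout library was Slc22a30, Slc22a18, Slc22a28, Slc22a7, Slc22a23 and Slc22a15. In the wild-type library Slc22a18 stood above Slc22a30 and Slc22a23 above Slc22a7, with the other places as in the knockout library. Without replicates it cannot be said which neighbours in this order differ beyond their spread.

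**Figure D1:**
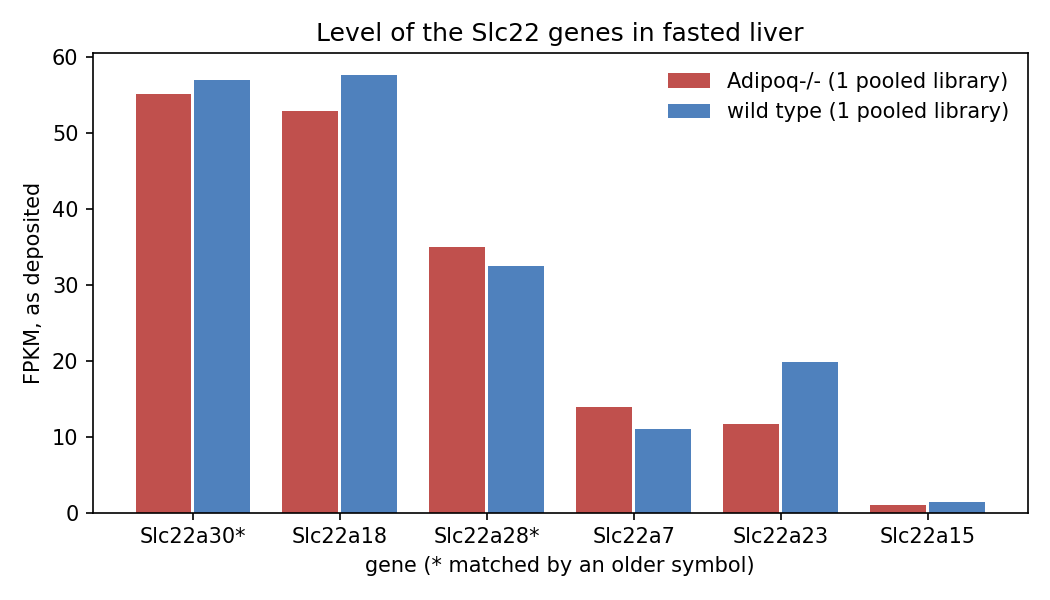
Bars give FPKM as deposited (vertical axis, linear from 0) of the 6 listed Slc22 genes found in the tables, in 1 pooled Adipoq-/- library (red) and 1 pooled wild-type library (blue), and an asterisk marks genes matched by an older symbol. Slc22a23 had 11.7 FPKM in the knockout library against 19.9 in wild type, while the bars of Slc22a30, Slc22a18 and Slc22a28 were nearly level.

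The comparison between genotypes asks how liver expression of these transporters differs when adiponectin is missing. It is given as log2((knockout FPKM + 1) / (wild-type FPKM + 1)) minus the median of that ratio over the 11985 genes that reached 1 FPKM in either library, which was -0.15. This relative log2 ratio understates the difference of low genes. Below, "above" and "below" refer to the all-gene median, and no difference has a replicate check or a p-value.

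Slc22a7, the organic anion transporter of the hepatocyte, had 13.9 FPKM in the knockout library against 11.1 FPKM in the wild-type library. On deposited values this was a ratio of 1.26, and the relative log2 ratio was 0.46, the highest of the listed genes. The value was higher in the knockout library both as deposited and relative to other genes. By ratio the gene ranked 1399 from the top of the 11985 genes, and 88.3% of genes had a lower ratio. Its transcript shared 0% of its 35-base windows with transcripts of other genes.

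Slc22a23, the orphan transporter, was lower in the knockout library. It had 11.7 FPKM in the knockout library against 19.9 FPKM in the wild-type library, so that the wild-type value was 1.69 times the knockout value. The relative log2 ratio was -0.56, and the gene ranked 372 from the bottom, with 3.10% of genes at a lower ratio. In level it stood at percentile 63.1 of all genes in the knockout library and 71.5 in the wild-type library. Among the 3596 genes with a mean of 5 to 20 FPKM, the central 95% of relative log2 ratios ran between -0.58 and 0.73, so Slc22a23 lay just inside the lower end and Slc22a7 well inside the upper end. The ratio also moved with transcript length. The genes nearest to Slc22a23 in length, whose longest transcript has 6251 bases, had a median relative log2 ratio of -0.13, and against those genes the log2 ratio of Slc22a23 was -0.43.

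Slc22a15, the relative of the carnitine transporters, was near the limit of what was compared. It had 0.953 FPKM in the knockout library against 1.43 FPKM in the wild-type library, and it passed the minimum of 1 FPKM only through the wild-type library. The relative log2 ratio was -0.16, and without a pseudocount -0.41. Against genes of like transcript length, with 6573 bases in its own longest transcript, the log2 ratio was -0.035. The knockout value was the lower of the pair under each of these measures, by an amount that depended on the measure.

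Slc22a18, the imprinted transporter, had 53.0 FPKM in the knockout library against 57.7 FPKM in the wild-type library. Its relative log2 ratio was 0.031, in the middle of all genes, with 53.7% of genes at a lower ratio. As deposited the knockout value was lower, and relative to other genes it was not, so its direction depended on scaling. Of the imprinted domain that holds it, 5 of 20 listed genes were measured, with 2 above and 3 below the all-gene median. Its neighbour Nap1l4, a histone chaperone gene, had 21.3 FPKM in the knockout library and 23.6 FPKM in wild type (relative log2 ratio 0.013). Cars, the cysteinyl-tRNA synthetase gene of the same domain, had 13.8 FPKM in the knockout library and 21.8 FPKM in wild type (-0.47). Cd81, a tetraspanin gene, had 130.2 and 156 FPKM in the knockout and wild-type libraries (-0.11).

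The rodent genes Slc22a28 and Slc22a30 were close to equal in both libraries. Slc22a28 had 34.97 FPKM in the knockout library against 32.5 FPKM in the wild-type library, with a relative log2 ratio of 0.25. Slc22a30 had 55.2 FPKM in the knockout library against 57.0 FPKM in the wild-type library, with a relative log2 ratio of 0.10. As deposited, the first of these was higher and the second lower in the knockout library. Slc22a29, which lies between them and is listed under the older symbol D630002G06Rik, had 9.60 FPKM in the knockout library and 8.001 FPKM in wild type (0.39).

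The chromosome 19 copies share much of their sequence. Of the 1970 windows of 35 bases in the longest protein-coding Slc22a28 transcript of GENCODE M21, 64.9% were found in transcripts of other genes and 63.9% in those of Slc22a30. For Slc22a30 the shares were 41.9% and, with Slc22a28, 37.3%. For Slc22a29 they were 41.8% and, with Slc22a27, 36.3%. The sources used here give neither the read length nor the treatment of reads that match several places. The separate values of Slc22a28, Slc22a30 and Slc22a29 are therefore uncertain. Summed, Slc22a28 and Slc22a30 came to 90.1 FPKM in the knockout library and 89.6 FPKM in the wild-type library, and the relative log2 ratio of the sums was 0.16. With Slc22a29 the sums were 99.7 FPKM and 97.6 FPKM in the knockout and wild-type libraries (0.18). Slc22a18 and Slc22a23, like Slc22a7, shared 0% of their windows with other genes, and Slc22a15 shared 1.18%. In the GENCODE M21 annotation no exon of the 6 genes overlaps an exon of another gene on either strand.

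**Figure D2:**
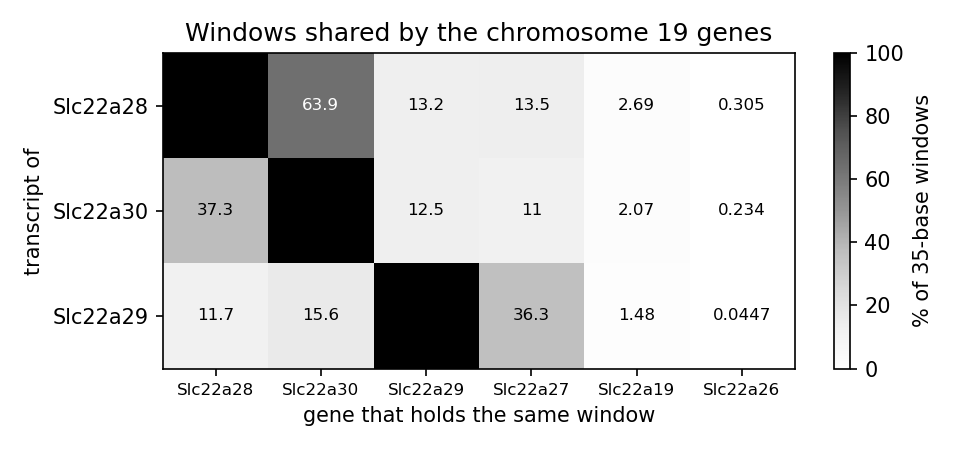
Shading and numbers give the percent of 35-base windows of the longest protein-coding transcript of each row's gene that occur in any transcript of the column's gene, with dark cells for the gene itself. Slc22a28 shared 63.9% of its windows with Slc22a30, and Slc22a29 shared 36.3% with Slc22a27, against 13.2% of Slc22a28 windows found in Slc22a29.

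Counted over the 4 genes matched by symbol, 2 lay above and 2 below the all-gene median, and with the older symbols 4 of 6 lay above and 2 below, where 50% of all genes lie on each side. None of the 6 was at least 1.5-fold higher or lower relative to the all-gene median, a difference reached by 6.73% of genes in the higher and 2.61% in the lower direction. Without centring, but with the pseudocount of 1 FPKM, 0 of the 6 were at least 1.5-fold higher and 1, Slc22a23, was at least 1.5-fold lower, against 3.23% and 6.17% of all genes. On FPKM without centring or pseudocount, 0 of the 6 were at least 1.5-fold higher and 2, Slc22a23 and Slc22a15, at least 1.5-fold lower, where 4.91% of genes were higher and 13.5% lower by that much. None of the 6 was at least 2-fold higher or lower without centring and with the pseudocount, as 0.459% and 0.759% of genes were. On deposited FPKM, 1 of the 4 genes was higher and 3 were lower in the knockout library (2 and 4 of 6), where 33.1% of all genes were higher and 66.9% lower. The median relative log2 ratio was -0.067 over the 4 genes and 0.067 over the 6, against 0 over all genes. Since Slc22a15 passed the minimum only through wild type, these counts are a description. With Slc22a23 at -0.56 and Slc22a7 at 0.46, the 6 genes spanned most of the central 95% of all genes, which ran between -0.60 and 0.79.

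**Figure D3:**
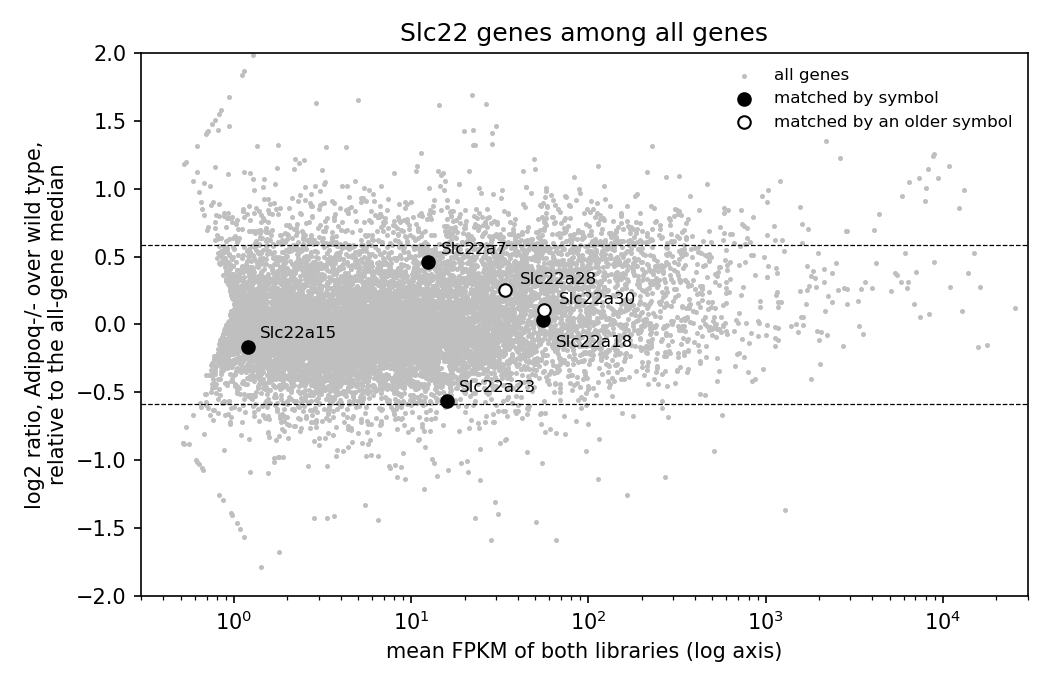
Each point is a gene, placed by its mean FPKM over both libraries (horizontal, log axis) and by its log2 ratio of Adipoq-/- over wild type relative to the all-gene median (vertical), with dashed lines at 1.5-fold in each direction and 17 genes beyond the vertical range of -2 to 2. Slc22a23 at -0.56 sits just inside the lower dashed line and Slc22a7 at 0.46 inside the upper one.

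Further Slc22 genes stood on both sides of the all-gene median. Of 5 described here that reached 1 FPKM, 3 lay above and 2 below it, 0 reached 1.5-fold, and their median was 0.080. Slc22a2, an organic cation transporter, had 11.9 FPKM in the knockout library and 12.6 FPKM in wild type (0.080). The carnitine transporter Slc22a5 had 2.68 and 3.34 FPKM in the knockout and wild-type libraries (-0.085), and its relative Slc22a4 had 1.17 and 1.68 FPKM (-0.15). Slc22a19, an organic anion transporter of the chromosome 19 group, had 1.68 FPKM in the knockout library and 1.63 FPKM in wild type (0.18). Slc22a21 stayed under the minimum, at 0.565 and 0.842 FPKM in the knockout and wild-type libraries.

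The 12 Slc22 genes described here summed to 197 FPKM in the knockout library and 208 FPKM in the wild-type library, with a relative log2 ratio of the sums of 0.078. The 6 listed genes made up 86.0% of this sum in the knockout library and 86.5% in wild type. Slc22a7 held 7.06% of it in the knockout library and 5.32% in wild type. Slc22a23 held 5.95% of it in the knockout library and 9.57% in wild type.

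Genes for the other hepatic transporters lay lower as groups. Of 15 measured uptake transporters of the blood-facing membrane outside Slc22, 1 lay above and 14 below the all-gene median, with a list median of -0.26. Slco1a4, an organic anion transporting polypeptide, had 7.74 FPKM in the knockout library and 15.1 FPKM in wild type (-0.73), and Slc16a1, a monocarboxylate transporter, had 6.53 and 10.4 FPKM (-0.45). Of 12 measured efflux transporters, 1 lay above and 11 below, with a median of -0.23. The conjugate exporters Abcc3 (34.2 FPKM in the knockout library and 58.5 in wild type, -0.60) and Abcc2 (36.4 and 54.8, -0.43) were farthest from the median. Of all 212 genes with an Slc, Slco or Abc symbol, 61 lay above and 151 below, 0 were at least 1.5-fold higher and 10 at least 1.5-fold lower, and the median was -0.11. The difference between the Slc22 genes and these groups has no test. The ratio also moved with transcript length, with a median relative log2 ratio of 0.40 over the shortest 10% of genes and -0.12 over the longest 10%. The list medians were not corrected for it.

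**Figure D4:**
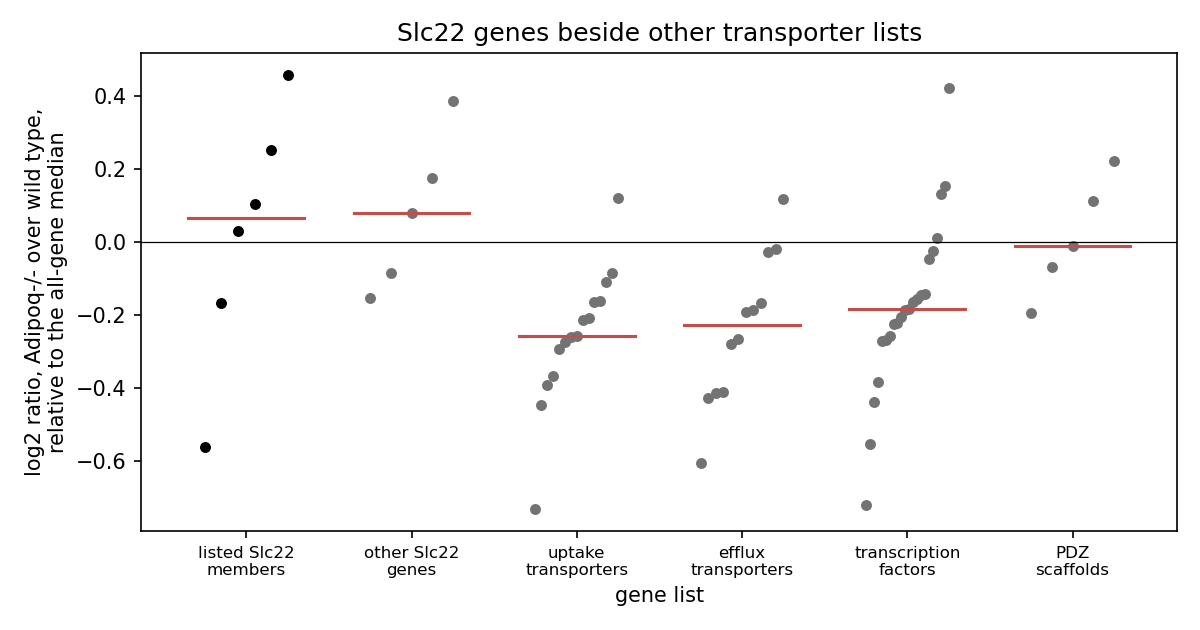
Points are genes that reached 1 FPKM in either library, grouped by list along the horizontal axis and placed by log2 ratio of Adipoq-/- over wild type relative to the all-gene median, and red lines are list medians. The 6 listed Slc22 genes spread between -0.56 and 0.46, whereas the uptake transporters (median -0.26) and efflux transporters (-0.23) lay mostly below 0.

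The genes that work with the transporters were described from the same fixed lists. PDZ scaffolds, which anchor transporters in the membrane, had 2 of 5 measured members above the all-gene median and a median of -0.011. Pdzd11 had 12.7 FPKM in the knockout library and 12.0 FPKM in wild type (0.22), and Pdzk1 had 18.5 and 23.8 FPKM (-0.19). Transcription factors known to act on hepatic transporter genes had 4 of 22 above and 18 below, with a median of -0.18. Stat5a, which relays growth hormone signals, had 1.69 FPKM in the knockout library and 3.93 FPKM in wild type (-0.72), and the xenobiotic receptor Nr1i3 had 26.1 and 43.2 FPKM (-0.55). Stat5b, of the same list, had 5.39 FPKM in the knockout library and 7.28 FPKM in wild type (-0.22).

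For purines and urate, 5 of 11 measured genes lay above and 6 below the all-gene median (median -0.10). Ampd2, an AMP deaminase, had 6.69 FPKM in the knockout library and 13.5 FPKM in wild type (-0.77), and the urate pathway gene Urad, listed as Prhoxnb, had 27.5 and 23.3 FPKM (0.38). For carnitine synthesis and transport, 1 of 9 lay above and 8 below (median -0.15). Crat, the carnitine acetyltransferase, had 12.4 FPKM in the knockout library and 29.0 FPKM in wild type (-1.01), and the octanoyltransferase Crot had 127 and 178 FPKM (-0.33).

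Among the 5 annotated genes on each side of each listed gene, few had an expression value, between 1 and 3 of 10 for each. Past 1.5-fold relative to the all-gene median were Tubb2b and Psmg4, both near Slc22a23. Tubb2b, a beta tubulin gene, had 12.5 FPKM in the knockout library and 24.8 FPKM in wild type (-0.78). Psmg4, a proteasome assembly chaperone gene, had 24.2 FPKM in the knockout library and 17.3 FPKM in wild type (0.61). Slc22a23 and its neighbours thus lay on both sides of the median.

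By level in the 2 libraries, the transporter gene most like Slc22a7 was the amino acid transporter subunit gene Slc3a1, at 14.6 FPKM in the knockout library and 11.9 FPKM in wild type, a distance of 0.12 on the log2 scale, followed by Abcb8 (0.17). For Slc22a23 the nearest were Slc25a42 (0.13) and Slc24a6 (0.27), and for Slc22a15 Slc41a1 (0.037) and Slc25a40 (0.097). Slc22a18 was closest to Abcg2 (0.10) and Slc31a1 (0.12), Slc22a28 to Slc25a17 (0.14) and Slc37a4 (0.27), and Slc22a30 to Abcg2 (0.056) and Slc22a18 (0.060). Slc25a42, a mitochondrial carrier, had 11.8 FPKM in the knockout library and 18.1 FPKM in wild type (-0.42). Likeness over 2 libraries describes level and ratio only.

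The tissue label was checked against markers. All 8 hepatocyte markers were measured, with summed levels of 34776 FPKM in the knockout library and 38268 FPKM in wild type and a median relative log2 ratio of -0.0031. Of these markers, 4 lay above and 4 below the all-gene median. Apoa1 had 6541 and 6039 FPKM (0.27) and Serpina1a 3001 and 2779 FPKM (0.26) in the knockout and wild-type libraries. Alb, the most abundant of the 8, had 14031 FPKM in the knockout library and 17522 FPKM in wild type (-0.17). Of 8 kidney tubule markers, 0 had a row among the deposited values, so their levels are not known. Of the other cell types, 3 of 6 cholangiocyte, 7 of 8 Kupffer cell and macrophage, 5 of 5 endothelial, 5 of 6 stellate and 3 of 4 erythroid markers were measured, with list medians of 0.20, 0.062, -0.060, 0.19 and 0.37. Summed cholangiocyte markers were 23.6 FPKM in the knockout library and 16.2 FPKM in wild type, mostly Spp1 (21.01 and 13.4 FPKM, 0.76), with Krt19 at 1.09 and 1.02 FPKM (0.20). Summed Kupffer cell markers were 188 FPKM in the knockout library and 147 FPKM in wild type. The sums differed mainly through Lyz2, at 116 and 72.5 FPKM (0.82), and Marco had 3.72 and 1.26 FPKM (1.21). Of the 7 markers, 5 lay above and 2 below the all-gene median. As deposited, Clec4f, Cd68, Csf1r and Cd163 were lower in the knockout library, and Adgre1, Lyz2 and Marco higher. Clec4f had 48.9 FPKM in the knockout library and 52.0 FPKM in wild type (0.062). In the knockout and wild-type libraries, endothelial Pecam1 had 2.74 and 2.56 FPKM (0.22) and Cdh5 2.04 and 2.82 FPKM (-0.18), stellate cell Des 1.22 and 0.864 FPKM (0.40) and Lrat 2.87 and 2.56 FPKM (0.27). Des passed the minimum only through the knockout library. Of the stellate cell markers, 3 lay above and 2 below the all-gene median, the latter being Reln (-0.11) and Col3a1 (-0.0086). The globin genes Hbb-b1 (5953 FPKM in the knockout library and 5126 in wild type, 0.37) and Hba-a1 (2555 and 2188, 0.37) made up most of the erythroid level. The other measured erythroid marker, Alas2, had 109 FPKM in the knockout library and 113 FPKM in wild type (0.096). Endothelial sums were 11.6 FPKM in the knockout library and 13.5 FPKM in wild type, stellate sums 69.2 and 69.0 FPKM, and erythroid sums 8617 and 7428 FPKM. No marker measured was listed at 0. Of 24 listed male-biased liver genes 21 were measured, with 15 above and 6 below the all-gene median (median 0.23). Of 24 listed female-biased ones only 12 were measured, with 0 above it (-0.30). The male-biased genes below it included Cyp4a12a (65.7 FPKM in the knockout library and 108 in wild type, -0.56) and Elovl3 (127 and 188, -0.40). Farthest from the all-gene median in each list were the male-biased Moxd1 (9.16 FPKM in the knockout library and 0.408 in wild type, 3.003) and Mup1 (12012 and 5658, 1.24), and the female-biased Cyp4a14 (15.2 and 46.5, -1.40) and Abcd2 (2.08 and 4.52, -0.69). Moxd1 passed the minimum only through the knockout library. The female-biased Acot3, at 0.396 FPKM in the knockout library and 1.12 FPKM in wild type, passed it only through wild type. Mup1, Hbb-b1 and Hba-a1 have close copies in the genome, so their own values are uncertain. The part of these genes in the Slc22 values was not tested, and in pooled tissue fewer cells of a type and less RNA per cell cannot be told apart.

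Scaling moved all 6 genes together. Slc22a7 was higher in the knockout library and Slc22a23 and Slc22a15 lower under each alternative in which they were measured, with values between 0.16 and 0.57 for Slc22a7, between -0.86 and -0.43 for Slc22a23 and between -0.41 and -0.035 for Slc22a15. Counted from 0 where a scaling was not centred on other genes, the direction of Slc22a18 turned under 5 of 11 alternatives, that of Slc22a30 under 2 and that of Slc22a28 under 1. Slc22a30 turned as deposited (-0.047) and with equal sums (-0.20), and Slc22a28 with equal sums (-0.053). These values lay above the all-gene medians of those scales, -0.15 as deposited and -0.28 with equal sums.

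**Figure D5:**
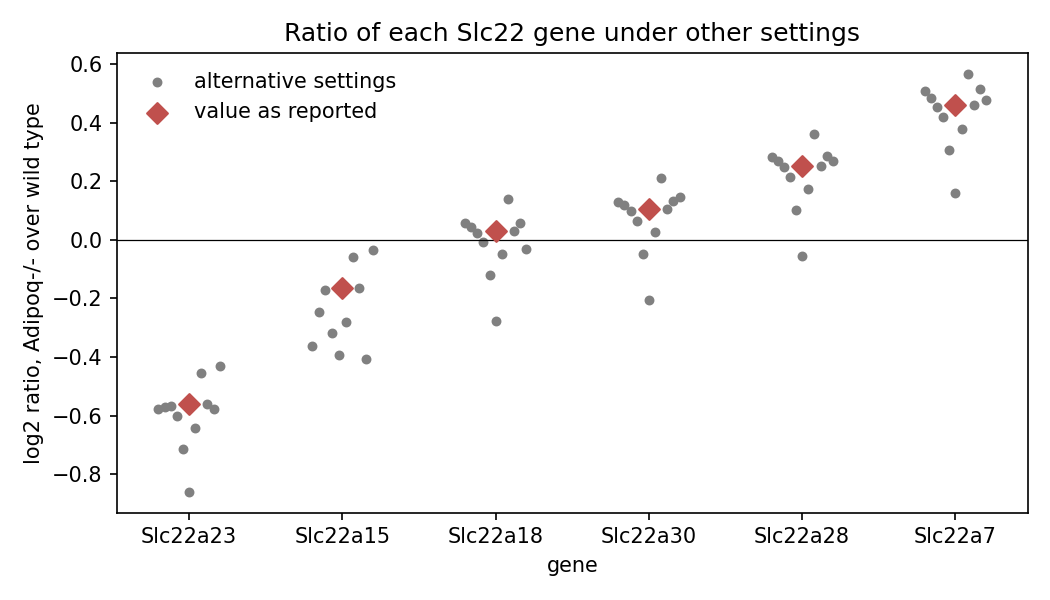
For each gene along the horizontal axis, the red diamond is the relative log2 ratio of Adipoq-/- over wild type as reported, and grey points are the log2 ratios under other pseudocounts, minimums, scalings and a length correction. Points for FPKM as deposited, equal sums and equal upper quartiles are counted from 0 and not from the all-gene median. Slc22a23 stayed below 0, with a range of -0.86 to -0.43, and Slc22a7 above 0, with a range of 0.16 to 0.57. Points of Slc22a18, Slc22a28 and Slc22a30 fell on both sides of 0. The -0.86 of Slc22a23, with equal sums, was -0.58 against the all-gene median of that scale.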

How the data were processed

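The deposited tables give 1 FPKM value per gene symbol and library, computed by the authors from pooled liver RNA. The submitters' processing notes name TopHat, Cuffdiff and the builds mm9 and NCBIM37. The sources used here give no roles, versions, annotation or read depth, so no counting interval is given. Both tables hold 13352 rows, with 26 symbols in 2 rows, of which the row higher in mean FPKM was used. Summed FPKM came to 892016 in the knockout and 798231 in the wild-type library, with 11325 and 11749 genes at 1 FPKM or more.

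Ratios were computed in Python 3.11.15 with pandas 2.3.3, with a pseudocount and a minimum of 1 FPKM, and the calculation was tested on simulated data. With 1 library per genotype no test was made. Each listed gene is named, and of each other list the 2 members farthest from the median. Cd81 is named as one of those, and Nap1l4, in addition, as a neighbour chosen after its value was seen. Some further members, such as Alas2, Stat5b, Cyp4a12a and Elovl3, were also named after their values were seen. The Slc22 genes and the lists were chosen with earlier results of these data known.

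Older symbols were matched through RefSeq (GRCm38.p6). Transcript lengths and shared windows of 35 bases came from GENCODE M21, and promoter windows were aligned with Biopython 1.88. A planned comparison of proteins was not made, and the shared windows were used instead. Some Slc22 genes are not reported here.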

Additional observations from a re-analysis of the deposited data

How the results depend on the processing

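The limits of these values lie in the design: 1 pooled library per genotype, no read depth, and paralogs that share sequence. No paired analysis was possible because each genotype has 1 library. A value was taken as moved when it shifted by at least 0.1 on the log2 scale, and a count when it changed by more than 1.5 times. The median relative log2 ratio over the 4 genes was -0.067. It was -0.22 with FPKM as deposited, -0.34 after rescaling to equal sums and 0.041 when centred on all transporter genes. Alternatives chosen after seeing the data gave -0.17 without a pseudocount and 0.067 with the genes matched by older symbols. FPKM as deposited, equal sums and equal upper quartiles are not centred, so under these the ratios are counted from 0 instead of the all-gene median, which lay at -0.15, -0.28 and -0.090. The number of genes above the all-gene median, 2 of 4 as reported, was 1 with a minimum of 5 FPKM and 1 after length correction, and 4 of 6 with older symbols. Counted from 0, it was 1 as deposited, 1 with equal sums and 1 with equal upper quartiles, and against the all-gene median of those scales it was 2, 1 and 2. The number at least 1.5-fold lower, 0 as reported, was 1 with a minimum of 5 FPKM, where Slc22a23 stood at -0.60. Counted from 0 and with the pseudocount of 1 FPKM, it was 1 as deposited, with equal sums and with equal upper quartiles. Against the all-gene median of those scales it was 0, with Slc22a23 at -0.56, -0.58 and -0.55. The minimum of 5 FPKM leaves out Slc22a15. The length correction used GENCODE M21 lengths, known for 96.5% of genes, and was added after seeing the data in place of a planned one with RefSeq lengths, which was not run. Pseudocounts of 0.1 and 0.5 FPKM, no minimum and the lower of 2 rows left the median and these counts within those limits.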
